A study of Mus musculus with 6 samples.

Results

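The genes described here encode the layer of signalling just beneath CXCR4 and the other G-protein-coupled receptors, that is G-protein subunits, regulators of G-protein signalling (RGS), receptor kinases and arrestins. They were chosen by symbol, as all Gna, Gnb, Gng, Rgs and Grk genes of a fixed pattern together with Adrbk1, Adrbk2, Arrb1 and Arrb2. The rule found 62 of the 23260 gene lines of the count tables, namely 16 alpha, 5 beta and 12 gamma subunits, 21 Rgs genes, 6 receptor kinases and 2 arrestins. RNA came from embryonic submandibular glands (eSMGs) of ICR mice at embryonic day 14, collected after 6 h of culture either as control or with 50 µM AMD3100, a small-molecule antagonist of CXCR4, with no genetic change in either group. Each group had 3 libraries, each made from a tube that pooled up to 10 whole glands, epithelium and mesenchyme together. The study's methods speak in general of independent experiments, but the labels do not tie the tubes of a group to separate litters or days, so p-values measure the spread between these tubes, some of which may be technical. Libraries of a 3′ mRNA kit were sequenced as 50 base reads, and 10869528 to 13127539 reads per control library and 9051595 to 14393031 per AMD3100 library were counted on genes. Levels are given as CPM, counts scaled to a common library total after TMM normalization, which evens out library composition. A 3′ read marks a transcript's end, so CPM was not divided by transcript length.

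A G protein is a trimer in which the alpha subunit binds a guanine nucleotide and the beta and gamma subunits act as one unit. An active receptor makes the alpha subunit exchange GDP for GTP, after which alpha and beta-gamma act on separate effectors such as adenylyl cyclase, phospholipase C and PI3K, until an RGS protein speeds GTP hydrolysis and ends the signal. Receptor kinases phosphorylate the active receptor and arrestins then bind it, which uncouples it and takes it into the cell. CXCR4 is known chiefly as a Gi-coupled receptor, and AMD3100 occupies the receptor without changing its gene.

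The glands expressed most of this machinery, and the families were unevenly used. Of the 62 genes, 43 had a mean of at least 1 CPM over the 6 libraries, 26 of at least 10 CPM and 7 of at least 100 CPM, and together the 62 genes took 2852 to 4128 CPM. Counts of 0 in every library were found for Gnat1 and Gnat3, the transducin and gustducin alpha subunits of rods and taste cells, and for Rgs21. A count of 0 allows up to 3 counts, or 0.173 to 0.368 CPM depending on the library, which covers counting error only because reads without molecular identifiers are not independent molecules. Gngt1, the rod gamma subunit, had 1 count in 1 library, and Gnat2, the cone alpha subunit, did not exceed 0.460 CPM. Marker genes of the labelled tissue were present in every library, with summed levels of 1490 to 3469 CPM for 11 epithelial markers (led by Krt15) and 1784 to 4400 CPM for 9 mesenchymal markers (led by Col3a1). By replicate, the epithelial sum was 2235, 2249 and 1490 CPM in control and 2696, 2348 and 3469 CPM in AMD3100, higher in AMD3100 at each number. Krt15 alone was at 1040, 1010 and 886 CPM in control and 1364, 1014 and 2468 CPM in AMD3100. The part of this difference in the results below was not tested. The plot of levels by library shows the spread of each expressed gene.

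**Figure D1:**
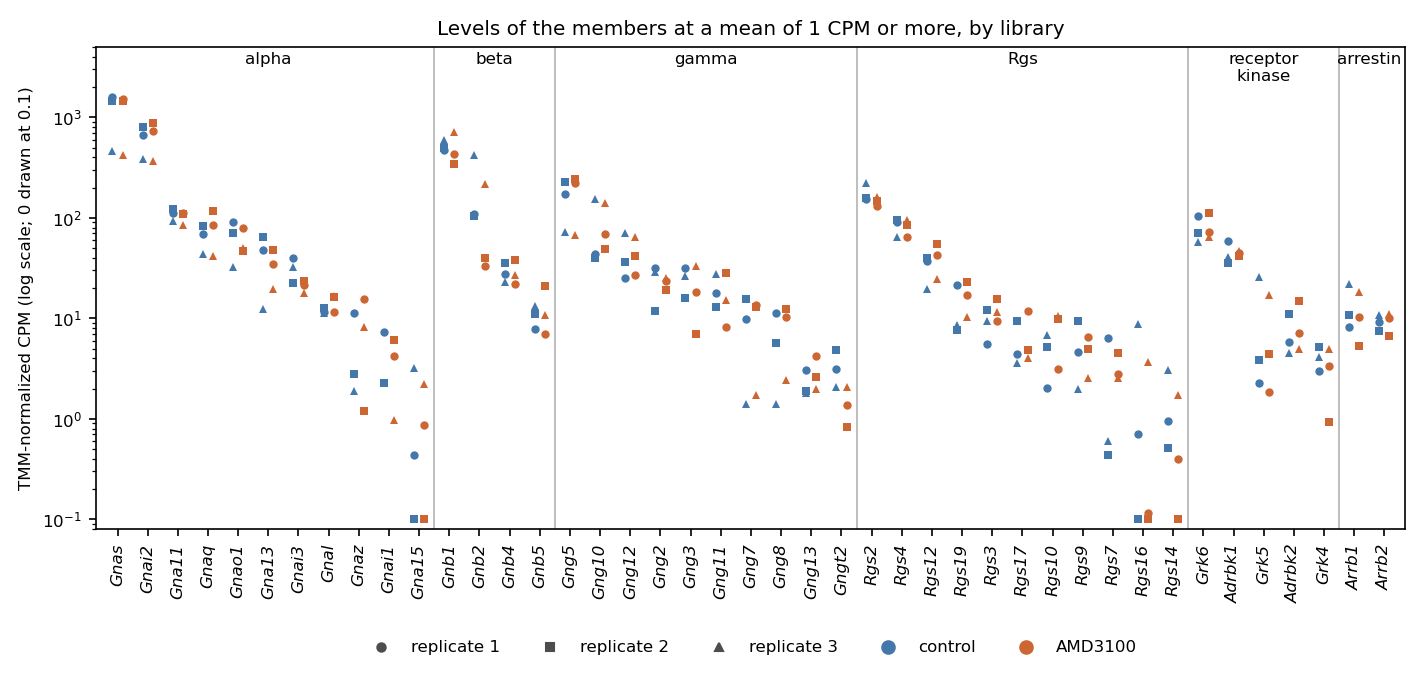
TMM-normalized CPM (vertical axis, log scale) of the 43 genes with a mean of at least 1 CPM, grouped by family and ordered by mean level, with control libraries in blue, AMD3100 libraries in orange and a marker shape for each replicate number. Gnas, Gnai2 and Gnb1 lie highest, and for several genes, Gnas, Gnb2 and Grk5 among them, the replicate 3 libraries (triangles) lie apart from the other libraries of both groups.

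Several of the genes lie beside another of the set on the chromosome, and many such neighbours differed widely in level. Within 250000 bases of each other lay 27 of the 62 genes, in 13 groups. The groups were formed by distance alone, and some join different families, such as Rgs9 with Gna13 and Rgs14 with Grk6. Gna11 and Gna15, alpha subunits of the Gq class, lie 4276 bases apart on chromosome 10, and their mean levels were 106 and 1.12 CPM. Gnaq and Gna14, also of the Gq class, lie 47146 bases apart on chromosome 19, with mean levels of 73.1 and 0.794 CPM. Rgs4 and Rgs5, small RGS proteins of the R4 class, lie 45663 bases apart on chromosome 1, with mean levels of 82.4 and 0.318 CPM. The 250 bases before the start of the last 4 of these genes are shown because the abundant and the scarce neighbour differ there in CG dinucleotides, which are written in capitals. The sequences are those of RefSeq on GRCm38.p6 (the mm10 assembly), 5′ to 3′ on the strand of the gene, and each ends where the span of its gene begins.

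Gnaq, chr19:16132434-16132683, plus strand: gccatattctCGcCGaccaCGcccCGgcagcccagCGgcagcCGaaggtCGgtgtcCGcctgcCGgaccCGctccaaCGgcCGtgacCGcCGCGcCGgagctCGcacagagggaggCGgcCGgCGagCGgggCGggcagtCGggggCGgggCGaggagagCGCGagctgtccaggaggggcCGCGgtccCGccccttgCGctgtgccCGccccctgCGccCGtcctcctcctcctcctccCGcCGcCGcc
Gna14, chr19:16435417-16435666, plus strand: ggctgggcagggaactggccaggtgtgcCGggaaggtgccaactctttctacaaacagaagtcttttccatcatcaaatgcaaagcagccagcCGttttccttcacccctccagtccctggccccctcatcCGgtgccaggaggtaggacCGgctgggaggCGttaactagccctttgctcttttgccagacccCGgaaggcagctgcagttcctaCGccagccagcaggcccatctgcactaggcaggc
Rgs4, chr1:169747643-169747892, minus strand: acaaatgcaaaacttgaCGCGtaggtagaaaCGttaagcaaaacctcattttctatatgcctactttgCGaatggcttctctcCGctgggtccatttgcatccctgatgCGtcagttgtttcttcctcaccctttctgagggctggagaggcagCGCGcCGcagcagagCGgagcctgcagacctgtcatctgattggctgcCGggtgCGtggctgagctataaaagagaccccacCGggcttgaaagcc
Rgs5, chr1:169655251-169655500, plus strand: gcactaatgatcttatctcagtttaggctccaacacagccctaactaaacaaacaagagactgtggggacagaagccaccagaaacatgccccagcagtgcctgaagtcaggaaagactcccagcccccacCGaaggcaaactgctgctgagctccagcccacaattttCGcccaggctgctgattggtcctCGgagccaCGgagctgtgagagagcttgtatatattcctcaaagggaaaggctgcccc

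The windows of Gnaq and Rgs4 hold 37 and 13 CG, and those of Gna14 and Rgs5 hold 7 and 4. Windows before a transcript start were at hand for 44 of the 62 genes (the one with the most CG where a gene had several) and, in 9 of the 13 groups, for at least 2 neighbours. In 8 of these 9 groups the neighbour with the higher mean level also had the most CG, and the exception was Rgs12, at 36.4 CPM with 14 CG, beside Grk4, at 3.56 CPM with 17. A window with at least 10 CG stood before 26 of the 32 genes at or over 1 CPM (81.3%) and before 3 of the 12 under 1 CPM (25%). The same shares among all genes were 76.5% of 10225 at or over 1 CPM and 19.3% of 6992 under it, so the signalling genes lay close to the whole table. For 23 of the 44 genes the transcript start used lies inside the span of the gene, for Gna15 by 222 bases, so windows are not all alike. Among the 21 genes whose window ends at the span, the more abundant neighbour had the most CG in 5 of 5 groups, and a window with at least 10 CG stood before 12 of 14 genes at or over 1 CPM and 1 of 7 under it. The comparison was chosen after the levels were seen and is a description without a test. A count of CG says nothing of methylation in these glands.

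**Figure D2:**
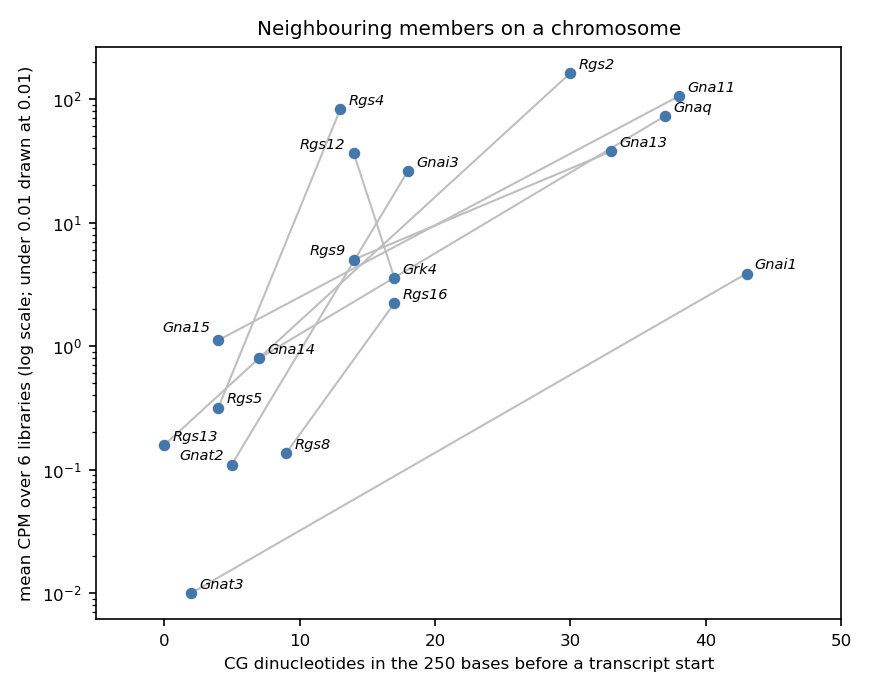
Mean CPM over the 6 libraries (vertical axis, log scale) against the number of CG dinucleotides in the 250 bases before a transcript start of each gene, for the 9 groups of neighbours with at least 2 windows, with a line joining neighbours. The line climbs to the right in 8 groups, as from Rgs5 at 4 CG to Rgs4 at 13 CG, and leans to the left for Rgs12 and Grk4.

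The libraries were not alike within a group, and both replicate 3 libraries stood apart. On the first principal component of all genes tested (38.2% of the variance) they scored 84.8 in control and 80.8 in AMD3100, whereas the other 4 libraries scored between -78.7 and -17.4. The second component (26.3%) set control replicate 1 (82.3) and AMD3100 replicate 2 (-87.6) at opposite ends. All others scored between -16.6 and 25.9 on it, so replicates 1 and 2 were not alike either. Markers of other tissue moved with the split of replicate 3 from the rest. The summed level of 11 skeletal muscle markers was 312, 327 and 1374 CPM in control replicates 1, 2 and 3 and 217, 168 and 1907 CPM in the AMD3100 replicates, and 10 of the 11 passed the filter on low counts. Its most abundant gene, Myog, a transcription factor of forming muscle, was at 41.0, 39.9 and 520 CPM in control and 13.9, 9.94 and 485 CPM in AMD3100. The 9 mesenchymal markers stood at 4400, 4330 and 2079 CPM in control and 4387, 4369 and 1784 CPM in AMD3100, and the 9 macrophage markers measured at 133, 103 and 294 CPM in control and 116, 140 and 236 CPM in AMD3100. No gene of these 3 lists was at 0 in every library. The 8 erythroid markers, led by Hba-a1, ranged from 4879 to 13997 CPM and the 10 neuron and glia markers, led by Tubb3, from 795 to 1111 CPM, while the 8 endothelial markers, led by Kdr, were scarce at 22.9 to 58.6 CPM. The sums of muscle and macrophage markers were thus higher and that of mesenchymal markers lower in both replicate 3 libraries. Of the mesenchymal markers, Col1a1, Col1a2, Col3a1, Pdgfra, Dcn and Vim were lower in both. Col3a1 was at 1401, 1419 and 406 CPM in control and 1406, 1391 and 414 CPM in AMD3100. Osr1, Pdgfrb and Twist1 were not lower in both, with Osr1 at 184, 172 and 169 CPM and 148, 140 and 160 CPM. Pdgfrb was at 10.6, 14.0 and 35.7 CPM and 19.3, 26.1 and 19.6 CPM. The macrophage sum was carried by C1qa, at 15.7, 14.0 and 122 CPM in control and 23.0, 18.5 and 94.9 CPM in AMD3100, with Lyz2 and Cx3cr1, whereas Csf1r stood at 43.1, 26.5 and 26.8 CPM and 39.8, 30.8 and 26.7 CPM and C1qb at 7.82 to 10.3 CPM. The part of these markers in the results below was not tested.

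The signalling genes showed the same split. With 0.5 CPM added, 6 of the 44 genes tested (13.6%) were over 2-fold higher in replicate 3 than in the mean of replicates 1 and 2 in both groups, against 8.19% of all genes tested. These were Gnb2, Gng10, Gna15, Rgs14, Grk5 and Arrb1. Another 7 (15.9%, against 9.11% of all genes) were over 2-fold lower in both groups, namely Gnas, Gna13, Gng5, Gng7, Gng8, Rgs9 and Rgs11, and 0 moved over 2-fold in opposite directions. Across the 44 genes the log2 ratio of replicate 3 in control and in AMD3100 had a Pearson r of 0.844, against 0.657 across all genes tested, as a description of points that share libraries. Rgs5, a marker of pericytes, and Rgs20 passed 3 counts only in the replicate 3 libraries, Rgs5 with 13 counts in control and 5 in AMD3100 and 0 in the other 4. Of the other pericyte and smooth muscle markers, Abcc9 was at 16.8 to 38.5 CPM and Acta2, the most abundant gene of that list, at 45.4 to 228.9 CPM, and Myh11 had 0 counts in control replicates 1 and 3.

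**Figure D3:**
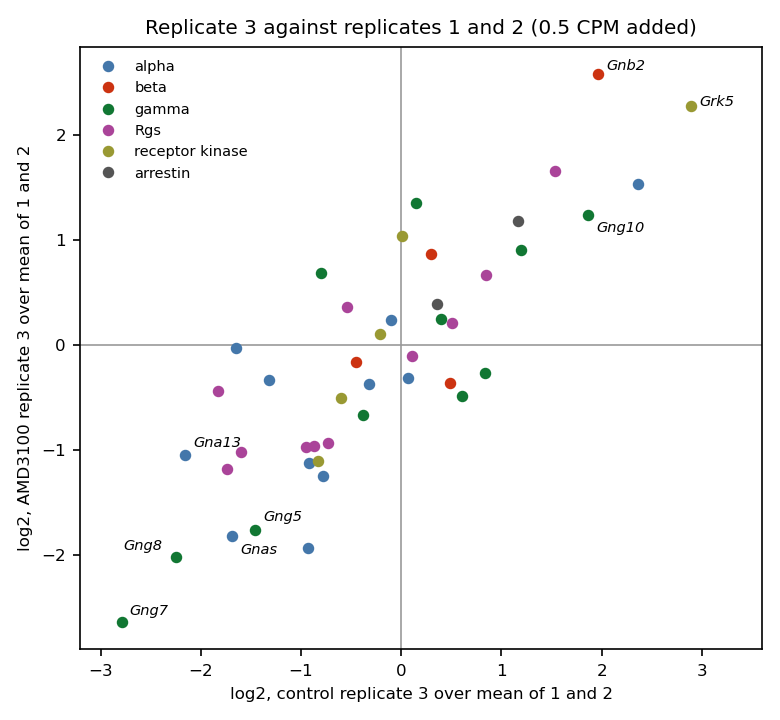
Log2 ratio of replicate 3 over the mean of replicates 1 and 2, with 0.5 CPM added, in control (horizontal axis) and in AMD3100 (vertical axis), for the 44 genes tested, coloured by family. Points run from the lower left (Gng7, Gng8, Gnas) to the upper right (Gnb2, Grk5), with r = 0.844.

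The comparison the design implies is whether blocking CXCR4 for 6 h changed the transcripts of this layer. Of the 62 genes, 44 passed the filter on low counts and entered edgeR's quasi-likelihood test with 13610 genes in all, and the other 18, among them Gna12, Gna14, Gnb3, Rgs1, Rgs5 and Rgs16, were too low. With the study's thresholds of a fold change over 1.5 and an unadjusted p under 0.05, 0 of the 44 passed, where 228 genes (1.68%) of all tested did. At an unadjusted p under 0.05 alone the count was also 0, and the lowest of edgeR's unadjusted p-values was 0.111, for Gnai3. DESeq2 likewise passed 0 of the 44 and 325 genes (2.39%) of all. Of all genes tested, 0 (0%) had an adjusted p under 0.05 in edgeR's test and 5 in DESeq2's. The fitted change was positive for 21 and negative for 23 of the 44, with a median log2 fold change of -0.01, against 0.02 for all genes tested. Within 1.5-fold in either direction lay 37 of the 44, and the median size of the change was 0.28 on the log2 scale for the 44 genes and for all genes. The median standard error was 0.56 (n = 3 libraries per group), so changes of the size typical here could not be resolved by this fit.

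Replicate numbers are shared by both groups in the labels, so each change was also fitted with the replicate number as a block. The replicate 3 libraries deviated together from their group means (r = 0.584). Replicates 1 and 2 correlated about as much across numbers (0.146 and 0.198) as within them (0.185 and 0.171), so their pairing rests on the labels. The block passed 598 genes (4.39%) of all tested, 2.9% as lower and 1.49% as higher, and 1 of the 44, Gnb2, which was lower. An adjusted p under 0.05 was reached with the block by 3 genes (0.022%) of all and 0 of the 44. With replicate 3 left out of both groups, and no block, 613 genes (4.39%) of all passed and 2 of the 43 signalling genes tested, Gnb2 (lower) and Gna14 (higher). The plot of fitted changes sets the unblocked and the blocked value of each gene side by side.

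**Figure D4:**
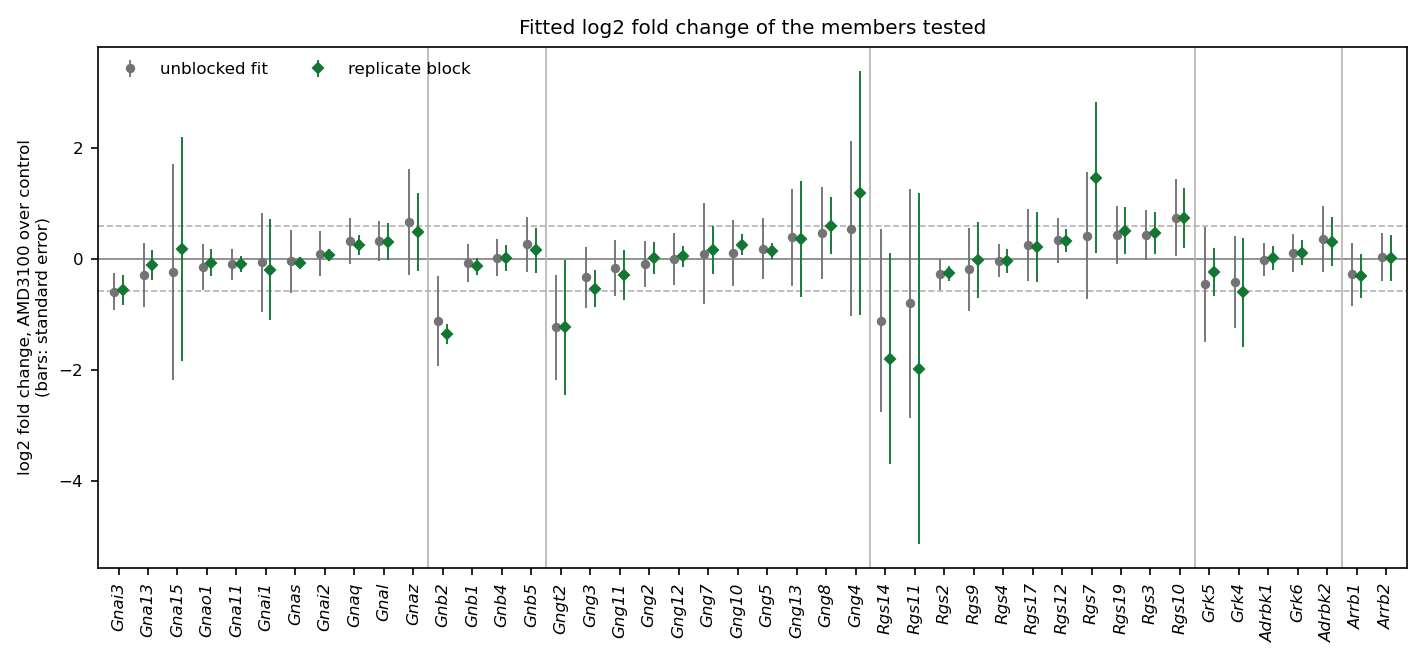
Log2 fold change of AMD3100 over control (vertical axis) with its standard error for the 44 genes tested, ordered by family and by value, from the fit without a block (grey circles) and with the replicate number as a block (green diamonds), and dashed lines at a 1.5-fold change. Only the blocked value of Gnb2 lies beyond the line by several standard errors, and the widest bars belong to scarce genes such as Rgs11 and Gng4.

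Gnb2, a widely expressed beta subunit (chr5:137528127-137533449, GRCm38.p6), had the lowest p of the set with the block. It was at 109.9, 105 and 421 CPM in control replicates 1, 2 and 3 and at 33.0, 39.5 and 219 CPM in the AMD3100 replicates, from 429 to 4226 counts. AMD3100 was lower in 3 of 3 same-numbered pairs, by 3.33-fold, 2.66-fold and 1.92-fold, but the groups overlapped because AMD3100 replicate 3 lay above control replicates 1 and 2. Without the block the log2 fold change was -1.13 (SE 0.81, 95% interval -2.96 to 0.71, edgeR's quasi-likelihood test, unadjusted p = 0.199, adjusted p = 1.0), and the exact permutation test of 3 against 3, which cannot go below 0.1, gave p = 0.5. With the block it was -1.36 (SE 0.17, 95% interval -1.75 to -0.97, edgeR, unadjusted p = 2.34e-05, adjusted p = 0.0622), past the study's thresholds and not past an adjusted p of 0.05. Without replicate 3 the blocked value was -1.58 (edgeR, adjusted p = 0.00633, where 0.0717% of all genes had an adjusted p under 0.05), and without replicate 1 or replicate 2 it was -1.18 (adjusted p = 0.108) and -1.33 (adjusted p = 0.117). In the fit without a block it was -2.57 without AMD3100 replicate 3 and -0.13 without control replicate 3. Myog, the muscle marker above, was also lower in AMD3100 in each pair, while the summed muscle markers were lower in pairs 1 and 2 and higher in pair 3, and with replicates 1 and 2 only 4 of the 9 muscle markers tested passed the thresholds as lower (Actc1, Myh3, Myog and Ttn), where 2.48% of all genes tested did. With the block, Myog (log2 fold change -1.16, SE 0.31), Myod1 (-2.05, SE 0.81), the mesenchymal marker Twist1 (-0.97, SE 0.34) and the pericyte marker Abcc9 (-0.59, SE 0.24) passed as lower and the epithelial marker Krt15 (0.62, SE 0.23) as higher. These were 2 of 10 muscle, 1 of 9 mesenchymal, 1 of 6 pericyte and smooth muscle and 1 of 11 epithelial markers tested. Of all genes the block passed 2.9% as lower and 1.49% as higher. Other markers of each list had blocked values of the opposite sign, among them Myh8 (0.60, SE 0.42), Pdgfrb (0.31, SE 0.39), Acta2 (0.08, SE 0.18) and Sox10 (-0.14, SE 0.19). The part of these markers in the difference of Gnb2 was not tested. In whole glands, fewer cells of a type that expresses a gene and less RNA per cell cannot be told apart. Of 11 reads simulated from the end of the Gnb2 transcript, 0 were shared with another place, and Epo, annotated over that end, had 0 counts in every library.

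Among the other beta subunits, Gnb1, the most abundant, was at 475, 494 and 597 CPM in control and 431, 345 and 710 CPM in AMD3100 (log2 fold change -0.08, SE 0.34), with overlapping groups. Gnb2 made up 17.7%, 16.3% and 39.9% of the summed beta level in control and 6.69%, 8.91% and 22.7% in AMD3100. Gnb1 took 76.5%, 76.5% and 56.6% in control and 87.4%, 77.8% and 73.5% in AMD3100. These shares restate the levels of Gnb2, since the share of Gnb1 was higher in AMD3100 in pairs 1 and 2 although its own CPM was lower there. Gnb4, another beta subunit, was at 27.3, 35.5 and 22.9 CPM in control and 22.1, 37.9 and 26.9 CPM in AMD3100 (log2 fold change 0.02, SE 0.34). Gnb5, which pairs with RGS proteins of the R7 class, was at 6.96 to 20.8 CPM, and Gnb3 did not exceed 1.05 CPM.

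**Figure D5:**
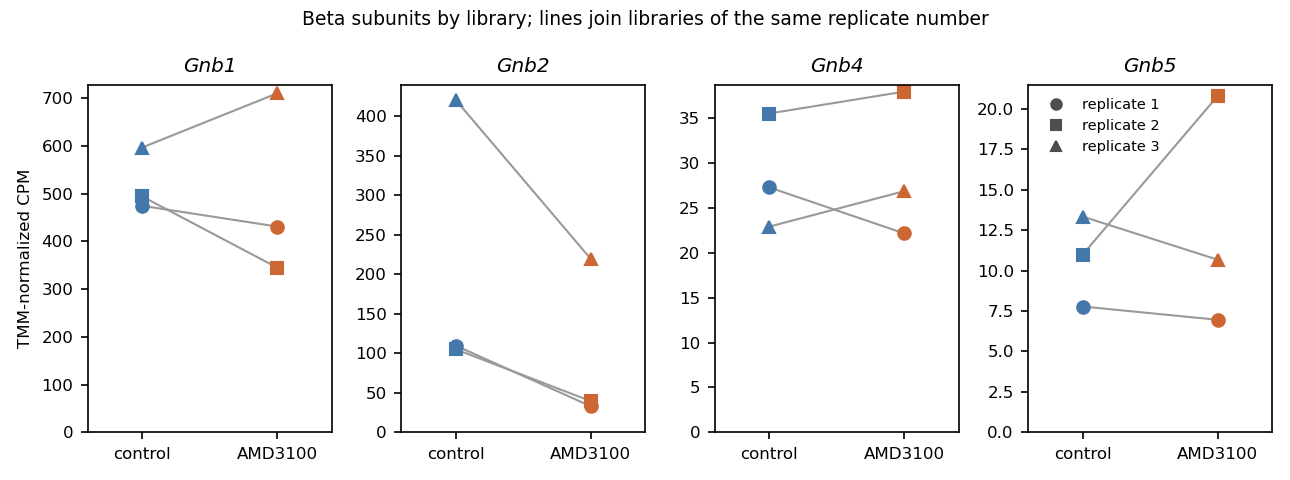
TMM-normalized CPM (vertical axes, each from 0) of Gnb1, Gnb2, Gnb4 and Gnb5 in control (blue) and AMD3100 (orange) libraries, with a line joining libraries of the same replicate number. All 3 lines fall for Gnb2, from 109.9 to 33.0, 105 to 39.5 and 421 to 219 CPM, and the lines of the other 3 genes run both ways.

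Among the alpha subunits, the transcripts of the Gs and Gi classes were the most abundant. Gnas, the Gs alpha subunit that stimulates adenylyl cyclase (chr2:174284320-174346744), was at 1579, 1435 and 467 CPM in control and 1503, 1450 and 420 CPM in AMD3100. Both replicate 3 libraries were over 3-fold lower than the rest, and within pairs the groups were close, with a log2 fold change of -0.05 (SE 0.57) without the block and -0.07 (SE 0.10, 95% interval -0.29 to 0.15) with it. Windows before 4 transcript starts were at hand for Gnas. Counts per gene symbol do not tell its transcripts apart, so its level is that of the whole gene. Gnai2, a Gi alpha subunit that inhibits adenylyl cyclase and a partner of CXCR4 in blood cells (chr9:107614125-107635391), was at 662, 807 and 388 CPM in control and 730, 875 and 367 CPM in AMD3100. Its log2 fold change was 0.09 (SE 0.41, 95% interval -0.84 to 1.01), and 0.06 (95% interval -0.19 to 0.30) with the block. Gna11, which activates phospholipase C, was at 113, 122 and 93.5 CPM in control and 111, 109.6 and 85.0 CPM in AMD3100, lower in 3 of 3 pairs by 1.02-fold to 1.11-fold (log2 fold change -0.10, SE 0.28). These intervals for Gnas and Gnai2 with the block lie within 1.5-fold.

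Gnai3, another Gi alpha subunit and outside the rule for named genes, had the lowest unadjusted p of the 44 in the fit without a block. It was at 39.6, 22.4 and 32.6 CPM in control and 21.5, 23.3 and 17.9 CPM in AMD3100, with overlapping groups and a log2 fold change of -0.59 (SE 0.33, edgeR, unadjusted p = 0.111, adjusted p = 1.0). With the block the value was -0.56 (SE 0.28, edgeR, unadjusted p = 0.0711). By class, Gs genes took 60.4%, 55.2% and 43.9% of the summed alpha level in control and 58.3%, 54.4% and 42.4% in AMD3100. The Gi/o class took 30.8%, 34.5% and 42.0% in control and 32.7%, 35.4% and 43.1% in AMD3100, and the Gq class 6.94%, 7.78% and 12.97% and then 7.67%, 8.42% and 12.6%. Replicate number moved these shares more than treatment did, with the Gs share lowest and the Gi/o and Gq shares highest in both replicate 3 libraries. The G12/13 class took 1.13% to 2.46%, nearly all of it from Gna13, since Gna12 had 1 count in 1 library although 0 of 11 reads simulated from its end were shared. Gna14, named after its values were seen, had 0, 0 and 6 counts in control and 42, 15 and 3 counts in AMD3100, so pairs 1 and 2 were higher in AMD3100 and pair 3 lower, and it did not pass the filter with all 6 libraries.

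Of the 12 gamma subunits, which anchor beta-gamma to the membrane, 11 were tested, 6 with a positive and 5 with a negative change. Gng5 was at 172, 224 and 71.7 CPM in control and 221, 242 and 68.0 CPM in AMD3100, but 90.9% of the reads simulated from its end were shared with another place and Dnase2b lies over it on the opposite strand, so its counts are uncertain. Gng10 was at 43.8, 40.2 and 155 CPM in control and 68.8, 48.4 and 139 CPM in AMD3100. Gm20503 is annotated on the same strand over its end, so the counts of Gng10 are uncertain too. Gng12 was at 25.2, 36.6 and 71.3 CPM in control and 26.9, 41.4 and 64.2 CPM in AMD3100. Gng5 was low and Gng10 and Gng12 were high in both replicate 3 libraries, and the groups of all 3 genes overlapped, with log2 fold changes of 0.18 (SE 0.54), 0.10 (SE 0.59) and -0.01 (SE 0.46). Gng2 ranged from 11.7 to 31.9 CPM with overlapping groups (log2 fold change -0.09, SE 0.42).

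Gngt2, the gamma subunit of cone transducin, was the only one of the 44 whose groups did not overlap, where 7.44% of all genes tested did not overlap in either direction and 4.17% did not overlap and were lower in AMD3100. It was at 3.15, 4.87 and 2.09 CPM in control and 1.38, 0.828 and 2.08 CPM in AMD3100. The lowest control library, replicate 3, and the highest AMD3100 library, also replicate 3, differed by 1.003-fold, so the separation rests on replicates 1 and 2. Its log2 fold change was -1.24 (SE 0.94, edgeR, unadjusted p = 0.223, adjusted p = 1.0), and the exact permutation test gave p = 0.1, the smallest it can give. All 3 pairs were lower for 5 of the 44 genes (11.4%, against 14.6% of all genes tested), namely Gnb2, Gngt2, Gna11, Rgs2 and Rgs14. All 3 were higher for 6 (13.6%, against 15.7%), namely Adrbk2, Gnal, Gng13, Rgs3, Rgs10 and Rgs12.

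Rgs transcripts were dominated by the R4 class, small proteins that act on Gi and Gq alpha subunits. This class took 75.6%, 78.4% and 87.2% of the summed Rgs level in control and 70.5%, 70.6% and 82.9% in AMD3100, lower in AMD3100 in each pair by less than the range within a group. Rgs2, a regulator with a preference for Gq, was at 154, 158 and 223 CPM in control and 132, 146 and 162 CPM in AMD3100. It was lower in 3 of 3 pairs, by 1.08-fold to 1.38-fold, with overlapping groups (log2 fold change -0.28, SE 0.28, edgeR, unadjusted p = 0.348), and with the block the value was -0.27 (SE 0.14, edgeR, unadjusted p = 0.0852). Rgs4 was at 90.4, 96.0 and 63.8 CPM in control and 63.9, 84.6 and 95.6 CPM in AMD3100, lower in pairs 1 and 2 and higher in pair 3. Rgs12, a large protein of the R12 class that also binds Ras and Raf, was at 37.4, 39.6 and 19.7 CPM in control and 42.4, 54.9 and 24.6 CPM in AMD3100, higher in 3 of 3 pairs (log2 fold change 0.33, SE 0.40). Rgs19, which acts on Gi alpha subunits, was at 7.56 to 23.1 CPM, and Rgs3 at 5.51 to 15.6 CPM, the latter uncertain because all 11 reads simulated from its end were shared.

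Of the 21 Rgs genes, 11 were tested, and 6 changes were positive and 5 negative. Rgs16 and Rgs1, R4 regulators known from activated blood cells and named after their values were seen, were near 0 outside replicate 3. Rgs16 had 8, 0 and 89 counts in control and 2, 0 and 30 counts in AMD3100, and Rgs1 had 0, 0 and 30 counts in control and 4, 0 and 15 counts in AMD3100. Both were higher in control than in AMD3100 within pair 3, at under 10 CPM.

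The genes that switch receptors off were present at lower levels. Grk6 was at 105, 70.0 and 57.6 CPM in control and 72.9, 111 and 64.9 CPM in AMD3100, with 54.5% of simulated reads shared with another place. Adrbk1, the beta-adrenergic receptor kinase also called GRK2, was at 59.1, 35.1 and 40.7 CPM in control and 44.9, 41.8 and 46.7 CPM in AMD3100 (log2 fold change -0.02, SE 0.30). Grk5 was at 2.27, 3.85 and 25.9 CPM in control and 1.84, 4.42 and 17.2 CPM in AMD3100, with 36.4% of simulated reads shared. Its groups overlapped and both replicate 3 libraries lay over 5-fold above the mean of the other libraries of their group. Arrb1, the arrestin beta 1 gene, was at 8.13, 10.9 and 22.0 CPM in control and 10.2, 5.34 and 18.3 CPM in AMD3100 (log2 fold change -0.28, SE 0.57). Arrb2, its close relative, was at 9.09, 7.49 and 10.8 CPM in control and 10.01, 6.72 and 11.2 CPM in AMD3100 (log2 fold change 0.03, SE 0.44, 95% interval -0.96 to 1.02). Neither arrestin differed beyond its spread, and the intervals do not exclude a 1.5-fold change.

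Around this layer, the receptor targeted by AMD3100 and its partners were measured but did not pass the thresholds. Cxcr4 was at 28.8, 10.3 and 30.3 CPM in control and 17.7, 15.005 and 16.2 CPM in AMD3100 (log2 fold change -0.50, SE 0.44). Its ligand Cxcl12 was at 114, 106 and 174 CPM in control and 97.9, 122.99 and 79.8 CPM in AMD3100 (log2 fold change -0.39, SE 0.32), and Ackr3, the other receptor of CXCL12, which signals through arrestin, was at 5.77, 0.727 and 1.69 CPM in control and 6.21, 6.72 and 6.99 CPM in AMD3100. Ackr3 was higher in every AMD3100 library than in any control library (log2 fold change 1.28, SE 0.82, edgeR, unadjusted p = 0.155, adjusted p = 1.0). Of all genes tested, 7.44% did not overlap in either direction. Control replicate 1 (5.77 CPM) lay close to AMD3100 replicate 1 (6.21 CPM), and control replicates 2 and 3 had only 10 and 17 counts.

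Among 33 other G-protein-coupled receptors measured, 26 were tested and 2 passed the thresholds, both lower in AMD3100 (1.28% of all genes tested were). Ednra, the endothelin A receptor, was at 9.96, 19.0 and 8.26 CPM in control and 3.62, 0.736 and 2.33 CPM in AMD3100 (log2 fold change -2.46, SE 0.69, edgeR, unadjusted p = 0.00630, adjusted p = 1.0). F2r, the thrombin receptor, was at 50.3, 54.2 and 25.7 CPM in control and 7.02, 22.1 and 12.996 CPM in AMD3100 (log2 fold change -1.63, SE 0.49, edgeR, unadjusted p = 0.00856, adjusted p = 1.0). For both receptors, which couple to Gq among other classes, the AMD3100 libraries lay below every control library, as for 4.17% of all genes tested. The other endothelin receptor, Ednrb, had a log2 fold change of 0.98 (SE 0.52), and 1.14 (SE 0.47) with the block, where it passed the thresholds as higher. Ednra and F2r passed the thresholds with each library left out in turn, from -3.02 to -2.02 and from -2.11 to -1.31 on the log2 scale. With replicates 1 and 2 only they passed together with Fzd2, Lpar4 and P2ry1, all 5 of 26 tested lower, where 2.48% of all genes were. Of the receptors listed, Lpar2 was at 0 in every library.

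Downstream, 0 of 17 adenylyl cyclase and cAMP kinase genes and 0 of 11 phospholipase C, PI3K and calcium genes tested passed, where 1.68% of all genes did. Their median log2 fold changes were -0.07 and 0.07. The block passed 1 of the 17, Adcy6, a cyclase that Gi inhibits, as lower, where it passed 2.9% of all genes as lower. With replicates 1 and 2 only, 2 of 17 passed as lower, Adcy6 and Prkacb, where 2.48% of all genes tested did. Adcy6 was at 39.4, 46.2 and 89.9 CPM in control and 4.43, 24.3 and 44.3 CPM in AMD3100, lower in each pair (blocked log2 fold change -1.63, SE 0.40, edgeR, adjusted p = 0.403). Of 18 other regulators tested, 1 passed, and it was lower (1.28% of all genes were). This was Pdcl3, a phosducin-like protein, at 11.9, 14.0 and 9.66 CPM in control and 6.67, 3.77 and 6.74 CPM in AMD3100 (log2 fold change -1.05, SE 0.46, edgeR, unadjusted p = 0.0499, adjusted p = 1.0). Its groups did not overlap, where 4.17% of all genes tested did not overlap and were lower in AMD3100. The block passed Pdcl3 and Gpsm2, which binds Gi alpha subunits, both lower (2 of 18, against 2.9% of all genes). Pdcl3 did not pass with any 1 library left out (-1.19 to -0.82) or with replicates 1 and 2 only (-1.31). In that last setting 1 of the 18 passed as lower, Gpsm2.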

How the data were processed

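The authors deposited raw read counts per gene symbol for each of the 6 libraries, without normalization. Per the submitters' processing notes, Bowtie2, edgeR and the mm10 assembly were used. The gene annotation and the strand setting of the counting are not given in the sources used here, so reads of a gene and of one on the opposite strand cannot be told apart. Of 23282 lines per library, 44 repeat a symbol, and 22 identical repeats were left out. Rn45s, the ribosomal RNA precursor, took 16.2% to 32.5% of the counts.

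Counts were compared with edgeR 4.0.16 in R 4.3.3 (TMM, filterByExpr, glmQLFit, glmQLFTest, condition as the only term, Benjamini-Hochberg adjustment over 13610 genes). The biological coefficient of variation was 0.579. Intervals are at the 95% level. The fits were tested on simulated data. The study's methods name quantile normalization and an equal-variance test, kept as an alternative because the deposited unit is counts. Other alternatives were DESeq2 1.42.0, upper quartile scaling, limma 3.58.1 voom after quantile normalization, other filters, robust estimation, Rn45s left out, a fold change over 2, the replicate block, replicates 1 and 2 only, and each library left out.

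Replicate numbers come from the labels of both groups. The deviations of same-numbered libraries from their group means correlated at 0.185, 0.171 and 0.584 across genes, all over 0.1. The numbers were taken to pair the libraries. Across numbers, control 1 with AMD3100 2 gave 0.146 and control 2 with AMD3100 1 gave 0.198, also over 0.1. The rule therefore cannot tell which libraries of replicates 1 and 2 belong together, and their pairing rests on the labels alone.

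The members and gene lists were chosen with earlier results of these data known. Genes were named by a rule of level (the 3 alpha, 3 beta, 4 gamma, 5 Rgs, 3 receptor kinase and 2 arrestin genes highest in mean CPM), together with every member called in either fit, members with groups that do not overlap at a mean of at least 1 CPM, list genes called without the block and the CXCL12 axis. Genes outside this rule were named after their values were seen. Positions and the 250 bases before transcript starts are RefSeq's on GRCm38.p6. Reads of 50 bases, every 25 bases over the last 300 of each transcript in GENCODE vM1 on NCBIM37, were aligned with minimap2 2.31-r1302, and all 62 genes matched.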

Additional observations from a re-analysis of the deposited data

How the results depend on the processing

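Without the block, the count of genes passing the thresholds was 228. It moved to 429 by the study's procedure as rebuilt here from its methods, a count that differs from the paper's own. The count was 613 with replicates 1 and 2 only and between 163 and 547 with 1 library left out. These extremes came without AMD3100 replicate 1 and without control replicate 3 (451 without AMD3100 replicate 3). The replicate block, the fit that pairs libraries by number, gave 598 genes, and 627, 641 and 661 without replicate 1, 2 or 3, settings chosen after seeing the data. Of the signalling genes, 0 passed without the block, 1 (Gnb2) with the replicate block, 1 of 44 (Gnb2) by limma-voom with quantile normalization (2.29% of all genes), 2 with replicates 1 and 2 only and 0 to 1 with 1 library left out (Gna14 of 45 without control replicate 3, where 3.84% of all genes passed, and Gnb2 of 45 without AMD3100 replicate 3, where 3.16% did). With the block, 1 of 45 passed without replicate 1 (Gnb2; 4.57% of all genes), 3 of 46 without replicate 2 (Gnai3, Gnb2 and Gng11; 4.63%) and 2 of 43 without replicate 3 (Gnb2 and Gng3; 4.74%). The cause of these changes was not tested.

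Of 398 values of the 21 named signalling genes under alternatives, 327 kept direction and side of the threshold, 7 (all Gnb2) passed it, and 64 changed sign. Gnb2 was negative under each alternative run, from -2.57 to -0.13 with 1 library left out. By limma-voom the sign turned for Adrbk1 (0.011), Gnb4 (-0.0025), Gng12 (0.031) and Gng2 (0.062), by the study's procedure for Gng12 (0.011), with the replicate block for Adrbk1 (0.014), Gng12 (0.0398) and Gng2 (0.015), and with replicates 1 and 2 only for Gnb4 (-0.075), Gng12 (0.13) and Grk5 (0.017). With 1 library left out, the values that changed sign ranged from -0.17 to 0.22 for Adrbk1, -0.82 to 0.25 for Arrb1, -0.13 to 0.22 for Arrb2, -0.20 to 0.00039 for Gna11, -0.17 to 0.36 for Gnai2, -0.43 to 0.34 for Gnas, -0.44 to 0.14 for Gnb1, -0.21 to 0.21 for Gnb4, -0.46 to 1.04 for Gng10, -0.40 to 0.52 for Gng12, -0.42 to 0.15 for Gng2, -0.16 to 0.56 for Gng5, -1.80 to 1.35 for Grk5, -0.16 to 0.37 for Grk6 and -0.19 to 0.11 for Rgs4. With the block, the sign turned without replicate 1 for Adrbk1 (0.22), Arrb2 (-0.056), Gng12 (0.0085), Gng2 (0.25) and Rgs4 (0.19), without replicate 2 for Arrb1 (0.0298), Gnb1 (0.058), Gnb4 (-0.037), Grk6 (-0.18), Rgs19 (-0.0403) and Rgs4 (0.0396), and without replicate 3 for Arrb2 (-0.014), Gnb4 (-0.11), Gng12 (0.13) and Gng2 (0.11). The block changed no other call of a named signalling gene. Genes at a few counts, and changes smaller than the standard errors, are limited by the depth and by 3 libraries per group.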
